A study of Mus musculus with 2 samples.

Results

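The 4 Hox gene clusters of the mouse are described here by the Sox6 and Sox9 peaks called within them in rib chondrocytes. The members are all deposited peaks whose centre lies in 1 of 4 windows on the mouse genome build mm9. The HoxA window runs on chromosome 6 from 52095000 to 52220000, HoxB on chromosome 11 from 96045000 to 96240000, HoxC on chromosome 15 from 102740000 to 102875000, and HoxD on chromosome 2 from 74490000 to 74610000. They hold 127 of the 102972 peaks of both lists, made up of 117 of 79107 Sox6 peaks and 10 of 23865 Sox9 peaks. Of the 38 Hox genes assigned to the windows, HoxA and HoxB have 10 each and HoxC and HoxD have 9 each.

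The study immunoprecipitated chromatin with an anti-Sox6 antibody from primary rib chondrocytes of untreated wild-type ICR mice at postnatal day 1, and 1 library of input DNA came from cells of the same kind. The ribs were dissected by hand to keep proliferative and prehypertrophic cartilage, and no source used here gives the number of animals. The Sox9 list comes from the authors' re-analysis of earlier Sox9 ChIP-seq data of mouse rib chondrocytes, with peaks called as for Sox6. No source used here gives the strain or age of the animals behind it, so a difference between the lists cannot be told apart from one between those animals, antibodies or libraries. Each factor thus has 1 list and no replicate. A list gives only the position of each called peak, so no read count, height or depth is known, and a stretch without a called peak is not shown to be unbound. The intervals below are exact 95% intervals that cover counting error only and treat peaks as independent, which neighbouring peaks are not. The rib dissection could not be checked against marker genes, because peak positions hold no expression values.

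Hox genes encode homeodomain transcription factors that give the parts of the body axis and of the limb their identity. Within each cluster the genes stand in the order in which they are used along the body, with low-numbered genes acting from the hindbrain and neck backwards and high-numbered genes acting in the lumbar, sacral and tail regions and in the distal limb. In the trunk skeleton the group 6 genes Hoxa6, Hoxb6 and Hoxc6 are known to promote rib formation, and the group 10 genes Hoxa10, Hoxc10 and Hoxd10 to suppress it, so that ribs stay restricted to the thorax. Cartilage does not form without SOX9, a transcription factor that binds DNA through an HMG box, and SOX6, of another branch of the same family, works alongside it in chondrocytes.

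Gene order was read from a RefSeq gene table of the later build GRCm38, in which the 38 genes were all present and lay on the same 4 chromosomes as the windows. In HoxA the order along the chromosome runs from Hoxa2 to Hoxa13. The other clusters run the opposite way, so that Hoxb13, Hoxc13 and Hoxd13 come before Hoxb1, Hoxc4 and Hoxd1. Distances below are therefore counted from the low-numbered gene end of each window, which is its start in HoxA and its end in the others. No mm9 annotation was used here. Peaks are placed by mm9 coordinates and by distance within a window, and none is assigned to a single Hox gene, promoter or intron.

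Sox6 peaks were most numerous in HoxA and fewer in the other clusters, whose densities over the whole list also exceeded the mean of the genome. The HoxA window of 125 kb held 67 Sox6 peaks, or 53.6 per 100 kb. HoxC held 27 in 135 kb, which is 20.0 per 100 kb. HoxD held 11 in 120 kb and HoxB 12 in 195 kb, or 9.17 and 6.15 per 100 kb. The mean over all chromosomes, each taken from its first to its last peak, was 3.08 per 100 kb. The ratio to that mean was 17.4 in HoxA (interval 13.5 to 22.1), 6.49 in HoxC (4.27 to 9.44), 2.97 in HoxD (1.48 to 5.32) and 2.00 in HoxB (1.03 to 3.49). HoxA alone held 67 of the 117 Sox6 peaks, and without it the ratio over the windows went from 6.60 to 3.60. The interval of HoxA overlaps none of the other intervals. That of HoxD overlaps those of HoxB and HoxC, which do not overlap each other. In the first 50% of the list the HoxB excess was lost: HoxB held 1 Sox6 peak there, against 3.01 at the mean density (ratio 0.333, 0.00842 to 1.85), and the ratios were 16.6 in HoxA, 5.77 in HoxC and 2.70 in HoxD (0.878 to 6.31). Peaks of a window are not replicates, and the differences between clusters were not tested.

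The mean density is a coarse background, since peaks of these lists gather in clusters across the genome. All chromosomes except Y were therefore cut into tiles as long as each window. Only 4 of 20484 tiles of 125 kb, or 0.0195%, held 67 or more Sox6 peaks, and the median tile held 2. For HoxC, 130 of 18965 tiles (0.685%) reached its 27 peaks. For HoxD the share of tiles with 11 or more was 9.66%, and for HoxB the share with 12 or more was 18.7%. HoxA and HoxC thus lie beyond the 99th percentile of their tiles, which is 23 and 24 Sox6 peaks, whereas HoxB and HoxD lie among the denser of ordinary stretches. Moving the tiles by a length of 50% of a tile gave 6 tiles as dense as HoxA. These shares describe where the windows lie in the genome and are no test.

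**Figure D1:**
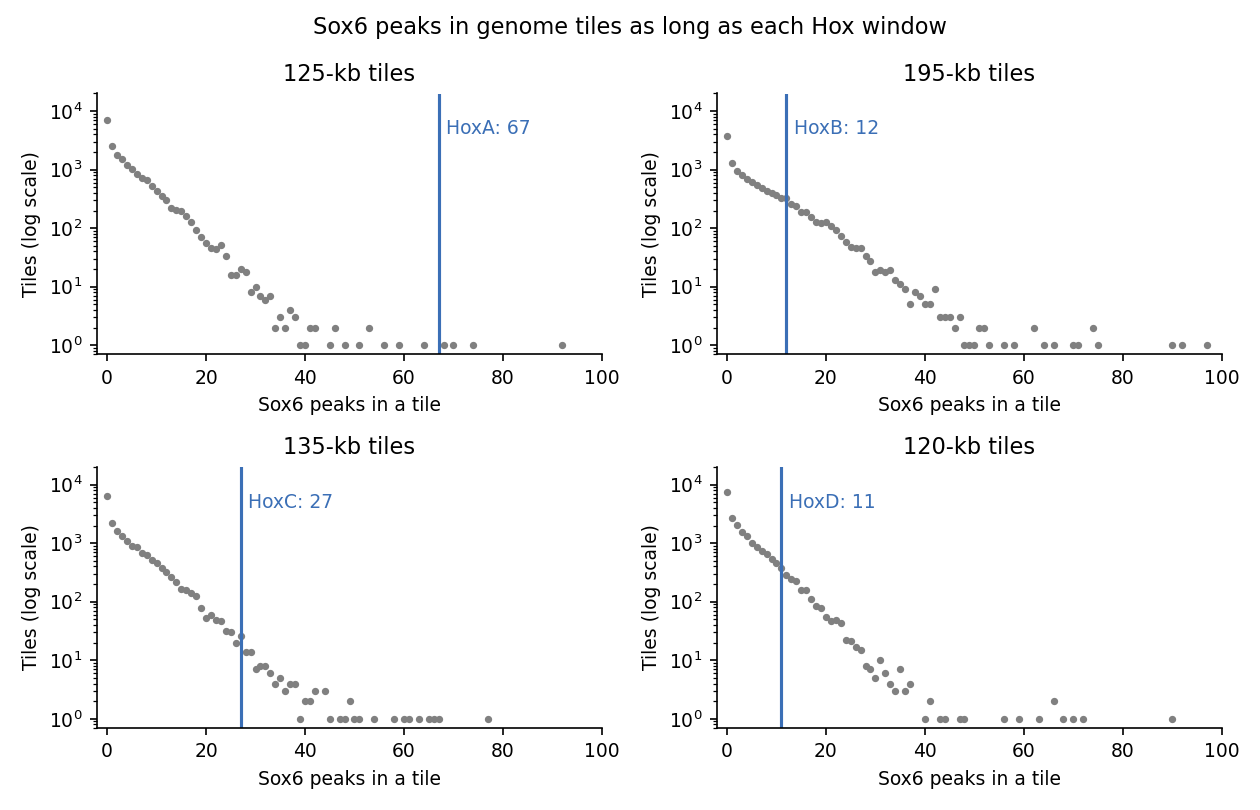
Number of genome tiles (vertical axis, log scale) against the Sox6 peaks a tile holds (horizontal axis), for tiles as long as each Hox window; the vertical line marks the window itself. The HoxA window with 67 peaks stands at the far right of its tiles and HoxC with 27 is in the tail. HoxB with 12 and HoxD with 11 are in the upper part of their tiles, at counts that 18.7% and 9.66% of the tiles reach.

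Within HoxA the Sox6 peaks form a nearly unbroken block that stops well before the high-numbered end. Taking neighbouring centres no more than 12.5 kb apart as 1 run, 65 of the 67 peaks made up a single run of 75.4 kb from 52100880 to 52176324. It was among the largest of the 9068 Sox6 runs of 3 or more peaks, of which 10 held more peaks. Counted in steps of 10 kb from the low-numbered end, the first step held 1 Sox6 peak and each of the next 6 held 8 to 11. Further on the steps held 6, 2, 1, 0 and 1, and the last 5 kb held none. Neighbouring centres in HoxA were a median of 767 bp apart, and 40 of the 66 spacings were below 1000 bp (60.6%, against 19.2% over the whole list, where the median spacing was 7665 bp). The peaks covered 10.2% of the HoxA window, against 0.520% of all chromosomes. Only 2 Sox6 peaks lay beyond the run, at 52190455 to 52190529 and at 52210104 to 52210243, with a stretch of 19.6 kb between them that held no peak of either factor. The outermost peak at the low-numbered end lay from 52100880 to 52101067.

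HoxC had a smaller run of the same kind in its low-numbered and middle parts. There 22 of the 27 Sox6 peaks made up a run of 48.3 kb from 102796939 to 102845202, and neighbouring centres in the window were a median of 1686 bp apart. Both ends of this run depend on the distance of 12.5 kb that defines a run. The empty stretches beside it measured 12.7 and 12.6 kb, so a slightly larger distance would lengthen it, and no other was tried. The stretch from 30 to 40 kb from the low-numbered end was the densest, with 9 peaks. Toward the high-numbered end lay only 2 single peaks, at 102784106 to 102784218 and at 102752504 to 102752619, with 31.5 kb between them in which neither factor had a called peak. In HoxB the 12 peaks fell into 2 runs, 9 in 34.4 kb from 96121705 to 96156070 and 3 in 11.4 kb from 96203396 to 96214799. The whole high-numbered end of HoxB, 76.7 kb or 39.3% of the window, held no peak of either factor. Hoxb13 is known to stand apart from the rest of its cluster across a long stretch without other Hox genes, but where this stretch lies within the window was not determined. HoxD had no dense run. Its 11 peaks were spread from 74494190 to 74591312 over 5 runs or single peaks, with at most 3 in a run and a median spacing of 8872 bp.

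**Figure D2:**
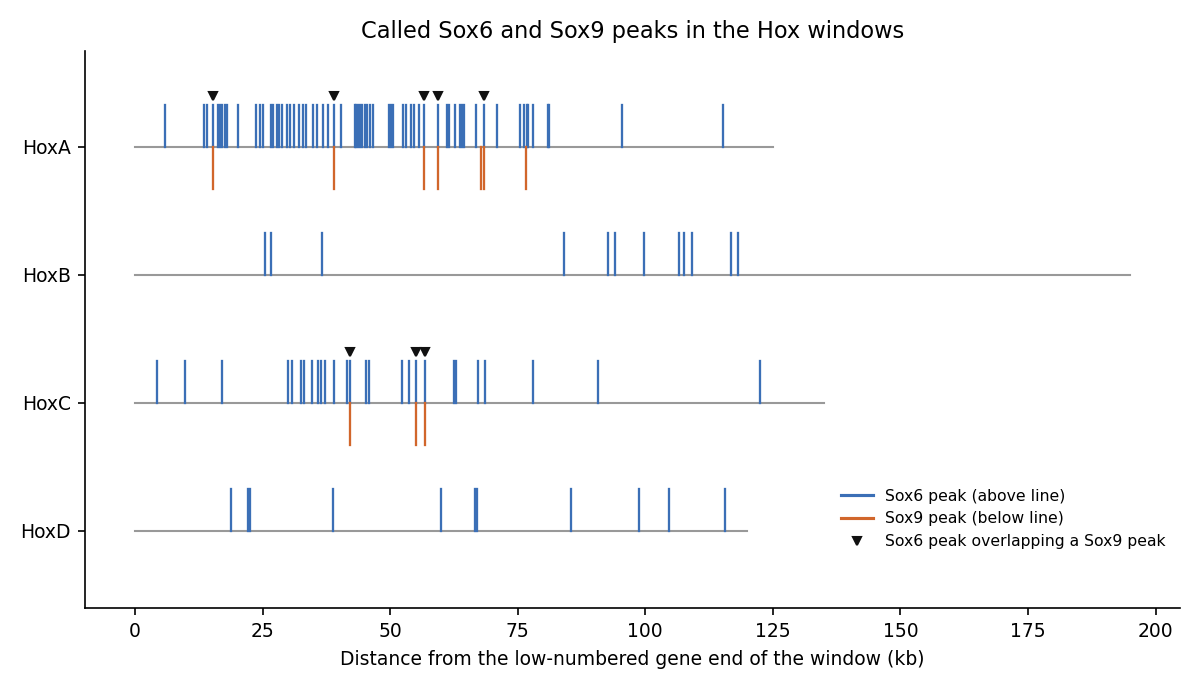
Called peaks in the 4 Hox windows by distance in kb from the low-numbered gene end, Sox6 above each line and Sox9 below it, with triangles over Sox6 peaks that overlap a Sox9 peak. The 65 Sox6 peaks of the HoxA run fill its low-numbered and middle parts, all 10 Sox9 peaks are in HoxA and HoxC, and HoxB and HoxD have none.

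The ends of the clusters were compared by cutting each window into 3 equal parts. Over all windows the low-numbered part held 51 Sox6 peaks (43.6%, interval 34.4 to 53.1), the middle part 58 (49.6%) and the high-numbered part 8 (6.84%, 3.00 to 13.0). In HoxA the parts held 30, 35 and 2 Sox6 peaks from the low-numbered to the high-numbered end. In HoxC they held 14, 11 and 2, and in HoxB 3, 9 and 0. Low counts at the high-numbered end were thus seen in HoxA, HoxB and HoxC, whereas HoxD had 4, 3 and 4 peaks. The interval of its high-numbered share (36.4%, 10.9 to 69.2) overlaps those of HoxB (0 to 26.5%) and HoxC (0.910 to 24.3%). It lies just above that of HoxA (0.364 to 10.4%). The counts are too few to show that HoxD differs from HoxB or HoxC. Without HoxA the high-numbered parts still held the fewest, 6 of 50 peaks (12%, 4.53 to 24.3), against 21 and 23. In density, the high-numbered parts had 4.80 Sox6 peaks per 100 kb in HoxA, 4.44 in HoxC and 10.0 in HoxD, against the mean of 3.08, and HoxB had none. These densities rest on 2, 2 and 4 peaks. No interval was computed for them, so a rise above the mean is not shown.

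A flank as long as its window was counted on either side, and at 6 of the 8 ends it had a lower Sox6 density than the adjoining part of the window. Of these 6, all but the low-numbered ends of HoxA and HoxC rest on 2 to 4 peaks on each side, too few to show a drop. The flank beyond the low-numbered end of HoxA held 14 Sox6 peaks, or 11.2 per 100 kb, against 72.0 in the adjoining part of the window. Beyond the high-numbered end of HoxA there were 4, or 3.20 per 100 kb. The HoxC flank on the low-numbered side held 12 peaks, or 8.89 per 100 kb against 31.1 in the adjoining part. The HoxD flanks held 3 and 4, and the flank beyond the low-numbered end of HoxB held 2. The flank was denser than the adjoining part at the high-numbered ends of HoxB and HoxC. That flank of HoxB held 14 Sox6 peaks, more than the 12 in the window itself, and that of HoxC held 8, or 5.93 per 100 kb against 4.44 in the adjoining part. Over all flanks the density was 5.39 per 100 kb on the low-numbered side and 5.22 on the high-numbered side. Set against these flanks, the Sox6 density of the windows was 3.84 times as high, compared with 6.60 times against all chromosomes.

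**Figure D3:**
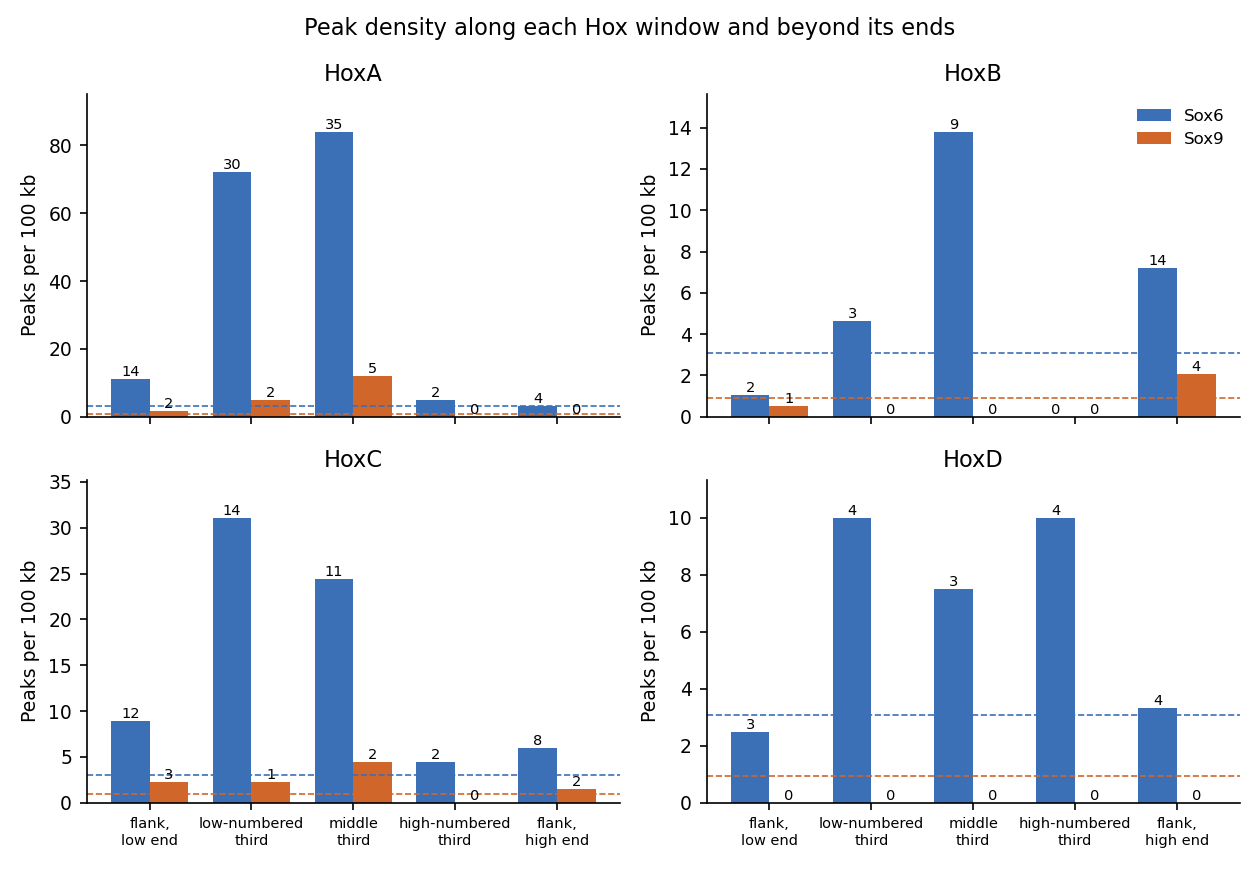
Peaks per 100 kb (vertical axis, scaled separately in each panel) in the 3 equal parts of each Hox window and in a flank as long as the window on either side, with the number of peaks above each bar and dashed lines at the mean of all chromosomes for each factor. For Sox6 in HoxA and HoxC the low-numbered and middle parts stand above both flanks, and the high-numbered part is below the flank of the low-numbered side; in HoxB the high-numbered part has 0 peaks of either factor.

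Sox9 peaks were few and lay only in HoxA and HoxC. HoxA held 7, or 5.60 per 100 kb, and HoxC held 3, or 2.22 per 100 kb, against a mean of 0.930 over all chromosomes. The ratio to the mean was 6.02 in HoxA (interval 2.42 to 12.4) and 2.39 in HoxC (0.493 to 6.98). Of the 125-kb tiles 3.04% held 7 or more Sox9 peaks, and of the 135-kb tiles 17.9% held 3 or more. The Sox9 density of HoxA was thus above the mean, and the interval of HoxC includes the mean. No Sox9 peak was called in HoxB or HoxD. A count of 0 allows up to 1.54 Sox9 peaks per 100 kb in HoxB and 2.50 in HoxD, both above the mean, and tiles without any Sox9 peak are common, at 48.2% of those of 195 kb and 58.1% of those of 120 kb. By itself the absence of Sox9 peaks from HoxB and HoxD is therefore not unusual for stretches of their length.

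Beside the number of Sox6 peaks, however, the Sox9 counts were at the low side. Among the 2460 tiles of 195 kb with at least the 12 Sox6 peaks of HoxB, 35 (1.42%) had no Sox9 peak, and the median was 5. Among the 2062 tiles of 120 kb with at least the 11 Sox6 peaks of HoxD, 49 (2.38%) had none, and the median was 4. Of the 130 tiles with at least as many Sox6 peaks as HoxC, 11 (8.46%) had 3 Sox9 peaks or fewer. For HoxA only 4 tiles could be set beside it, which held 5 to 20 Sox9 peaks against its 7, and the 6 such tiles found after the move held 10 to 23. These tiles include many with far more Sox6 peaks than the window. They were also not matched for place in the Sox6 list. Of the 12 HoxB peaks, 11 were in the last 50% of that list, where only 8.02% of all peaks overlapped Sox9. The shares thus describe the pairing of the lists and are no test. The nearest Sox9 peaks to HoxB lay 107 kb beyond its high-numbered end and 182 kb beyond its low-numbered end, and those nearest to HoxD 489 and 437 kb away. HoxD thus lay in a stretch of 1046 kb with 33 Sox6 peaks and no called Sox9 peak, and HoxB in one of 484 kb with 18 Sox6 peaks. These stretches were measured outward from windows already without Sox9 peaks. How often stretches like them occur over the genome was not counted, so they are not shown to be unusual.

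The Sox9 peaks of HoxA all lay within the Sox6 run, and none lay in the high-numbered part of any window. Reading HoxA from the low-numbered end, the first Sox9 peak spanned 52110194 to 52110354, 15.3 kb into the window, with a centre only 2.50 bp away from the centre of the Sox6 peak at 52110199 to 52110344. The second, 52 bp wide, spanned 52133922 to 52133973 and lay inside a Sox6 peak of 164 bp. A pair followed at 52151602 to 52151719 and 52154280 to 52154478, each overlapping a Sox6 peak with centres 15.0 and 73.5 bp apart. These 2 Sox6 peaks, at 52151614 to 52151737 and 52154213 to 52154398, were also the earliest of HoxA in the Sox6 list, at places 721 and 885 of 79107.

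The remaining 3 Sox9 peaks of HoxA lay close to Sox6 peaks without all of them touching one. The peak at 52163285 to 52163391 overlapped a Sox6 peak, with centres 61.5 bp apart. A neighbour at 52162834 to 52163018 missed the same Sox6 peak by 219 bp, and the peak at 52171671 to 52171794 missed another by 10 bp. In HoxC all 3 Sox9 peaks overlapped Sox6. They lay at 102832722 to 102832882, 102819865 to 102820211 and 102817988 to 102818127, with centres 6, 154 and 21.5 bp from those of their Sox6 peaks. The Sox6 peak under the first of them, at 102832749 to 102832867, was the earliest of HoxC at place 719, and the one under the second was next at place 3247.

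The share of Sox9 peaks that met Sox6 was near that of the whole list, and the share of Sox6 peaks that met Sox9 lay below it. By an overlap of at least 1 bp, 8 of 10 Sox9 peaks met a Sox6 peak (80.0%, interval 44.4 to 97.5), against 76.7% of the whole Sox9 list, and all 10 had a Sox6 peak within a gap of 1000 bp, against 90.8%. Of the 117 Sox6 peaks, 8 met a Sox9 peak (6.84%, 3.00 to 13.0), against 23.1% of the whole Sox6 list. The share was 5 of 67 in HoxA (7.46%, 2.47 to 16.6) and 3 of 27 in HoxC (11.1%, 2.35 to 29.2). It was 0 of 12 in HoxB and 0 of 11 in HoxD, with upper limits of the exact interval of 26.5% and 28.5%, both above the share of the whole list. With a gap of up to 1000 bp, 17 Sox6 peaks (14.5%, 8.70 to 22.2) had a Sox9 peak on or beside them, against 32.3% of the whole list. By this wider rule the counts in HoxB and HoxD were again 0 of 12 and 0 of 11. The upper limits were thus again 26.5% and 28.5%, here below the 32.3% of the whole list. That share takes no account of place in the list, and 11 of the 12 HoxB peaks were in its last 50%. No share matched for place was computed for the wider rule, so these limits alone do not show a shortfall in HoxB or HoxD. Without HoxA the share by overlap was 3 of 50 (6%, 1.25 to 16.5). The differences from the whole list were not tested. The low Sox6 share by overlap was largely set by the counts, since the windows held only 10 Sox9 peaks beside 117 Sox6 peaks. Each overlapping Sox9 peak met 1 Sox6 peak, which leaves no room for a share near 23.1%.

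The place of the peaks in the deposited lists bears on that comparison, since in both lists early peaks overlap the other factor more often. What the order stands for is not documented. The Sox6 peaks of the Hox windows had a median place at 58.5% of the list, with quartiles at 31.2% and 76.9%, and 10 of 117 (8.55%) were in its first 10%, which holds 10.00% of the list by construction. Of these 10 early peaks, 6 overlapped Sox9, against 70.8% of the first 10% of the list. Between 10% and 50% of the list 2 of 40 did (5.00%, 0.611 to 16.9), against 29.9%, and in the last 50% none of 67 did, against 8.02%. Applying the overlap share of each of 20 equal sections of the list to the members gave 24.1 expected overlaps, against the 8 counted. For HoxA the same sum gave 14.6 against 5, for HoxC 6.60 against 3, for HoxB 1.35 against 0 and for HoxD 1.52 against 0. The count was thus below the sum in each of the 4 clusters, by less than 2 peaks in HoxB and HoxD. The sums take no account of the Sox9 peaks at hand, 7 in HoxA, 3 in HoxC and none in HoxB or HoxD. Each overlapping Sox9 peak met 1 Sox6 peak, so the counts could hardly have reached the sums. The difference therefore restates the low Sox9 counts and is no separate sign of less sharing.

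**Figure D4:**
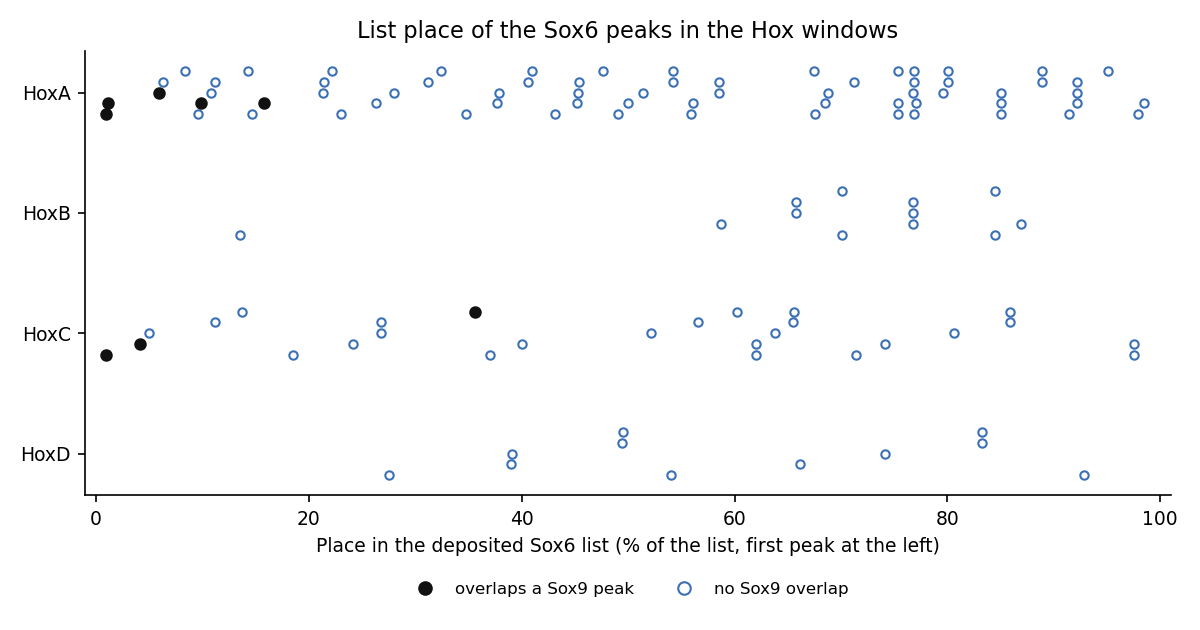
Place of each Sox6 peak of the Hox windows in the deposited Sox6 list, as a percentage of the list with the first peak at the left, with filled points for peaks that overlap a Sox9 peak; vertical offsets within a cluster only separate the points. The last of the 8 overlapping peaks is at 35.6% of the list, and 6 of them are among the 10 members in its first 10%.

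The clusters differed in where their Sox6 peaks stood in the list. HoxA spanned nearly all of it, with 7 peaks in the first 10% and 35 in the last 50%, which holds 50.0% of the list. Among the 7 early peaks of HoxA, 3 had no Sox9 overlap. HoxC had 3 peaks in the first 10%, of which the 1 at 102829740 to 102829896, place 3921, had no Sox9 overlap and lay 2825 bp from the nearest Sox9 peak. HoxB and HoxD had none. The earliest HoxB peak, at 96121705 to 96121799, was at place 10685 and was the outermost Sox6 peak toward the high-numbered end, and 11 of the 12 HoxB peaks were in the last 50% of the list. The earliest of HoxD, at 74505158 to 74505355, was at place 21746. The Sox9 peaks of the windows were late in their list, at a median of 71.5%, and none was in its first 10%. The earliest was the HoxA peak at 52154280 to 52154478, at place 3489 of 23865.

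Widths differed little from the rest of the list. Sox6 peaks of the Hox windows had a median width of 156 bp (quartiles 113 and 220 bp), against 151 bp over the whole list (116 and 200 bp). The medians were 166 bp in HoxA, 135 bp in HoxB, 126 bp in HoxC and 143 bp in HoxD. The widest peak of HoxA measured 466 bp, from 52155829 to 52156294, and that of HoxC 444 bp, from 102844759 to 102845202. In HoxB the widest measured 369 bp, from 96214431 to 96214799, and was also the peak nearest to the low-numbered end, and in HoxD it measured 237 bp, from 74587338 to 74587574. The narrowest of all, 12 bp, lay in HoxD from 74550086 to 74550097. None of the 4 widest overlapped a Sox9 peak, but neither did 109 of all 117 Sox6 members, and HoxB and HoxD held no Sox9 peak to meet. Over the whole list 23.1% of Sox6 peaks overlapped Sox9, so 4 peaks show nothing about width. The 10 Sox9 peaks had a median width of 150.5 bp against 183 bp in their list.

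Sox6 peaks that stand together in a Hox window often also stood together in the deposited list. Of the 117 members, 34 (29.1%, interval 21.0 to 38.2) had another Sox6 peak within 10 places of the list and within 200 kb on the same chromosome, against 16.2% of the whole list. Most of these were late peaks. It held for 32 of 67 members in the last 50% of the list (47.8%, 35.4 to 60.3), against 25.2% of all peaks there, and for 2 of 50 in the first 50%, against 7.13%. In HoxA the peaks at places 72917 and 72918 had centres 674.5 bp apart and were followed at place 72923 by a peak 28.6 kb further on. In HoxC the peaks at places 77092 and 77093 lay 86.6 kb apart and included the outermost peak at the low-numbered end, from 102870701 to 102870844. In HoxB, 5 of 11 late peaks had such a neighbour. A window with many peaks offers more chances of such a pair, and the part of this in the difference was not tested.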

How the data were processed

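Each file deposited by the authors lists called peaks in 3 columns without a header, namely chromosome, start and end, with no score, count or p-value. The submitters' processing notes name Bowtie and mm9 and carry no version. The sources used here do not name the peak caller or explain its threshold; the names of the deposited lists mention an FDR and no more. The same holds for the build of the Sox9 list, which was taken as mm9. Depth is unknown. Starts were read as counted from 0 and are printed counted from 1. Peaks were assigned to windows by their centre. Overlaps needed 1 bp. Intervals are Clopper-Pearson for shares and exact Poisson for counts, and the density limits of windows without Sox9 peaks use 3 counts. Densities took each chromosome from its first to its last peak, 2566 Mb in all. The counting was tested on simulated peaks with planted overlaps. Python 3.11.15, pandas 2.3.3, numpy 2.4.6 and scipy 1.17.1 were used. The input library was not used as a measurement here. The Sox6 peaks named are, per window, the earliest in the list, those overlapping Sox9, the widest and the outermost, and every Sox9 peak is named; the peak at place 3921, the narrowest peak and the single peaks beyond the runs of HoxA and HoxC were named after their values were seen. The members and the analyses were chosen with earlier results of these data known. Results were recomputed with the first 50% of each list, other overlap rules, wider and narrower windows, merged peaks and other backgrounds. The computation without HoxA, the density of each window in the first 50% of the list, the moved tiles and the sums over list sections were added after seeing the data. No sequence under the peaks was read, and SOX motifs were not counted.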

Additional observations from a re-analysis of the deposited data

How the results depend on the processing

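Counts and shares over the 4 windows kept their values, within counting error or 1.5 times, in 28 of 36 comparisons with an alternative setting. Counting error is wide for Sox9, so these 28 include visible changes. Requiring an overlap of at least 50% of both peaks took the Sox9 share from 80.0% to 50.0%. In the first 50% of the list the Sox9 density ratio was 1.12, against 1.87. With the first 50% of each list the windows held 50 Sox6 and 3 Sox9 peaks, all 3 of the latter (100%) overlapping Sox6 and 66.7% in the low-numbered part. That Sox9 share was 30.0% over the whole list and 10.0% with windows widened by 20 kb, which is 3 peaks and 1 peak of 10. The Sox6 share in the low-numbered part also depended on the window edges. It was 43.6% in the main setting, 36.4% with windows widened by 20 kb and 49.1% with windows narrowed by 10 kb. Allowing a gap of up to 1000 bp, the overlap shares became 14.5% for Sox6 and 100% for Sox9. Against the flanks the Sox6 density ratio was 3.84, and ordered by width the median Sox6 place was 46.5%. For the counts of single windows 34 of 40 stayed within 1.5 times of the full count. These include the Sox9 counts of 0 in HoxB and HoxD, which a shorter list, narrower windows or merging could not change. The other 6 were all counts in the first 50% of the lists, among them the single Sox6 peak of HoxB. The cause of these moves was not tested beyond the smaller or wider sets that the alternatives themselves make. Without HoxA the windows held 50 Sox6 and 3 Sox9 peaks, with density ratios of 3.60 and 0.717 and a Sox9 overlap of 100%, so the pooled Sox9 ratio of 1.87 rests on HoxA. No paired analysis was possible because each factor has only 1 list, and no replicate could be left out. What 10 Sox9 peaks can show is limited, as their intervals give.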
